A study of Mus musculus with 9 samples.

Results

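In the mouse left ventricle, 21 of 37 fatty acid uptake and oxidation genes lay lower, with no overlapping values, in 4 libraries with little *Vdac2* than in 4 with much of it (4.93% of all tested genes did), and 0 of 37 passed the test between the deposited genotype labels (0.0551% of all tested genes did). Each label held libraries with little and with much *Vdac2*, so the label test does not compare low with high *Vdac2*. The 37 genes, of 52636 in the count table, take up, bind, store, activate and oxidise fatty acids. They form a list of names drawn up with earlier results of these data known, and the libraries in which they are set side by side were chosen by the measured level of *Vdac2*. All 37 genes passed the low-count filter and were among the 16322 genes tested. Total left ventricular RNA of C57BL6J mice aged 16 weeks was depleted of ribosomal RNA and sequenced, giving 5 libraries with the label WT (numbers 1 to 5) and 4 with the label KO (numbers 6 to 9). In the KO, floxed *Vdac2* is deleted by Cre under the alpha-myosin heavy chain promoter, which acts in cardiomyocytes, so the other cells of the ventricle keep the gene. The WT mice were littermates that carried the floxed alleles or Cre alone, and the labels do not say which. The study counts its sequencing samples in mice, but the labels do not tie each library to an animal, so p-values measure the spread between these libraries.

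The heart draws most of its energy from fatty acids. Lipoprotein lipase releases them from circulating triglycerides, CD36 and the fatty acid transport proteins bring them into the cell, and binding proteins carry them through the cytosol. After activation to acyl-CoA they cross the mitochondrial membranes as carnitine esters, and each round of beta-oxidation shortens the chain by dehydrogenation, hydration, a further dehydrogenation and thiolysis. Nuclear receptors of the PPAR and oestrogen-related receptor families and the coactivator PGC-1alpha are known to drive the transcription of many of these genes.

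Depth ran from 27345052 to 44673988 counts per library, so that 3 counts, taken as the smallest level shown, were 0.0693 to 0.114 CPM, a bound that covers counting error only. Levels are CPM, counts scaled to library sizes normalised by edgeR's TMM method. *Vdac2* went against the labels. Its level was 20.2 and 21.3 CPM in libraries 1 and 5 (labelled WT) and 20.5 and 19.1 CPM in libraries 7 and 9 (labelled KO). Far higher were libraries 2 and 4, labelled WT, with 366 and 365 CPM, and libraries 6 and 8, labelled KO, with 384 and 421 CPM. Library 3, labelled WT, lay between them at 58.5 CPM. Between the labels the *Vdac2* log2 fold change was 0.35 (SE 1.19, edgeR adjusted p = 0.92). The limits that set the libraries side by side were under 100 CPM and over 300 CPM. The nearest to the upper limit was library 4 at 365 CPM, and no library lay between the limits. Library 3, the nearest to the lower limit, also lay under it, but the rule names it to be shown apart, and the next below was library 5 at 21.3 CPM. These sets are a description by a measured level and not genotype groups, so they get no mean, no fold change between means and no test. Only values, sums, ranges, counts and ratios between single libraries are given for them, and no library was moved to another label. The labels coincide with the lane of the flow cell (lane 1 for WT, lane 2 for KO) and with the genes of the sex chromosomes: the lowest *Xist* level under the KO label was 335 CPM and the highest under the WT label 0.152 CPM. Label, lane and sex cannot be told apart.

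Library 3 stood apart before any comparison. Mitochondrially encoded genes took 9.07% of its counts and 16.8% to 19.2% of those of the other 8 libraries. The ventricular markers *Myl2*, *Myl3*, *Myh6*, *Tnni3*, *Tnnt2*, *Actc1*, *Ckm* and *Pln* were present in every library, which fits the labelled tissue, but their summed level was 13392 CPM in library 3 against 48909 to 68139.9 CPM in the others. In bulk tissue, fewer cells of a type and less RNA per cell cannot be told apart. The study left out 1 WT sample whose RNA was poor. Its library number is not given in the sources used here, so all 9 libraries were kept and the log2 fold changes printed below for single fatty acid genes and their regulators are also given without library 3.

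**Figure D1:**
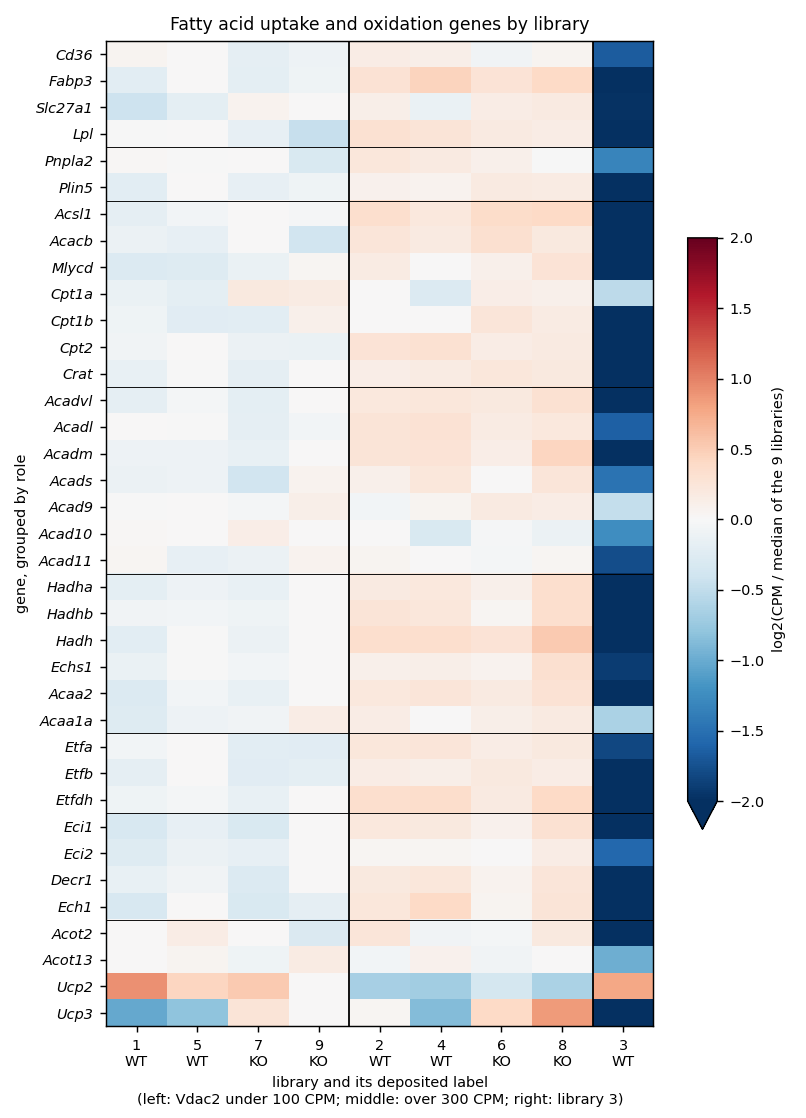
Level of each of the 37 genes (rows, grouped by role) in each library (columns), as the log2 of its CPM over its median of the 9 libraries, with the scale ending at -2 so that lower values share the darkest blue. Most rows are bluer in libraries 1, 5, 7 and 9 than in libraries 2, 4, 6 and 8, library 3 is the lowest in 36 of 37 rows, and *Ucp2* runs the other way.

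Since many of the 37 genes ran in 1 order over the libraries, their promoters were searched for the sites of the receptors named above. In RefSeq (GRCm38.p6), windows of 250 bases before to 50 bases after the start were found for 30 of the 37 genes, 34 windows in all. The nuclear receptor half-site AGGTCA, searched on both strands, was in 9 of the 34 windows (26.5%), those of 8 genes, and in 16.3% of all 32851 promoter windows of this length. The direct repeat AGGTCANAGGTCA, which holds the half-site at both ends, was in 0 of the 34 windows and 0.0396% of all. The longer half-site TCAAGGTCA, known for oestrogen-related receptors and also holding AGGTCA, was in 0 of the 34 and 0.423% of all. A match is only a match of letters in these windows. Printed below are the windows of *Ucp3* and *Ucp2*, neighbours on the plus strand of chromosome 7 whose levels ran in different orders, and of *Acadvl* and *Hadha*, on the minus strands of chromosomes 11 and 5, whose levels ran in the same order. They are *Ucp3* chr7:100472741-100473040 (+), *Ucp2* chr7:100493108-100493407 (+), *Acadvl* chr11:70015379-70015678 (-) and *Hadha* chr5:30154931-30155230 (-), each written 5′ to 3′ on the strand of the gene. Capitals mark AGGTCA, which *Ucp3* holds at 149 and 44 bases before the start and *Acadvl* at 87 bases before it, while the other two windows hold none.
Ucp3: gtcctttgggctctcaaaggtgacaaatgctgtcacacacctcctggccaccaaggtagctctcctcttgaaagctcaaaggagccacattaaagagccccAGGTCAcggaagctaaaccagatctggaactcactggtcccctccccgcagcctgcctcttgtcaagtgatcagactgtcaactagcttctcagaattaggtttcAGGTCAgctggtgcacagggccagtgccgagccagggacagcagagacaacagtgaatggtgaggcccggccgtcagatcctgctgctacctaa
Ucp2: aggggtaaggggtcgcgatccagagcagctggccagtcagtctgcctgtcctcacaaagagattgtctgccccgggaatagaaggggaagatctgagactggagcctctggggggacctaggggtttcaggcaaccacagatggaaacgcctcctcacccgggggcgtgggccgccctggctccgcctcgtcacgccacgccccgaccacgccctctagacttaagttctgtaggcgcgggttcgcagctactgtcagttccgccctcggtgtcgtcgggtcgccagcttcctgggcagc
Acadvl: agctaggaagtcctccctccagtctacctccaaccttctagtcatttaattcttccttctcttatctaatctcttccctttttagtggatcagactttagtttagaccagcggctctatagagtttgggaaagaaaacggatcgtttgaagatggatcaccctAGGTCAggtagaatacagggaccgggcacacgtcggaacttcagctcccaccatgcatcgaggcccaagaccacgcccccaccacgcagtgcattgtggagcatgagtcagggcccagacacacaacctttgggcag
Hadha: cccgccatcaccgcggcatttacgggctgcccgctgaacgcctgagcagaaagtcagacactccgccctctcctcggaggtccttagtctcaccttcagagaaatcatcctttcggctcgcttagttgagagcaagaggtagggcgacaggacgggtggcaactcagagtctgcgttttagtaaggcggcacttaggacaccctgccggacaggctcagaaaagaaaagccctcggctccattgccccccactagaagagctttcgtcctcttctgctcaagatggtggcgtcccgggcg

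Over the libraries set apart by *Vdac2*, the 21 genes lay below, in all of libraries 1, 5, 7 and 9, their level in every library of 2, 4, 6 and 8. In the other direction, 1 gene, *Ucp2*, lay above without overlap, where 7.16% of all tested genes did, and 15 overlapped. The rule that chose the libraries used this contrast, so nothing is read from these counts against the background. For the 21 genes, the lowest of libraries 2, 4, 6 and 8 was 1.02 times (*Hadhb*) to 1.21 times (*Fabp3*) the highest of libraries 1, 5, 7 and 9, with a median of 1.10 times. The highest of the 8 libraries was 1.18 to 3.65 times the lowest over the 37 genes (median 1.43). Within the libraries labelled WT, libraries 1 and 5 lay below libraries 2 and 4 for 29 of 37 genes (23.3% of all tested genes), and within those labelled KO, libraries 7 and 9 lay below 6 and 8 for 27 of 37 (17.1% of all). Both orders held at once for 25 of 37 genes, the 21 genes and *Cd36*, *Slc27a1*, *Mlycd* and *Cpt1b*, against 8.58% of all. By step of the pathway, the genes that lay below without overlap were 2 of 4 for uptake and binding, 1 of 2 of the lipid droplet, 4 of 7 of activation and the carnitine shuttle, and 3 of 7 acyl-CoA dehydrogenases. They were 5 of 6 of the later steps of the spiral, 3 of 3 of electron transfer, 3 of 4 for unsaturated fatty acids and 0 of 4 thioesterases and uncoupling proteins. Of all tested genes 4.93% lay below without overlap, and nothing is read from the counts by step against that share either.

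In the values that follow, the first 4 are those of libraries 1, 5, 7 and 9, in this order, and the next 4 those of libraries 2, 4, 6 and 8. Positions are on GRCm38, and all 37 genes are annotated as protein coding. Among the genes of uptake, *Fabp3* (ENSMUSG00000028773, chromosome 4, 130308595 to 130315463), the fatty acid binding protein of heart muscle, was at 649.9, 755, 663 and 713 CPM, then 924, 1031, 915 and 994 CPM, and 156 CPM in library 3. No value of the first 4 reached the lowest of the next 4, and the gap of 1.21 times was the widest of the 21 genes. *Lpl* (ENSMUSG00000015568, chromosome 8, 68880491 to 68907448), the lipase that frees fatty acids at the vessel wall, was at 3653, 3675, 3278 and 2675 CPM, then 4519.5, 4402, 4158 and 4082 CPM, and 619.7 CPM in library 3. Here library 9 was the lowest of the 8 and the sets did not overlap. *Cd36* (ENSMUSG00000002944, chromosome 5, 17781690 to 17888801), the main fatty acid translocase of the heart, read 2699.9, 2602, 2308 and 2437 CPM, then 2879.9, 2814, 2481 and 2698 CPM, and 817 CPM in library 3. Its sets overlapped because libraries 1 and 5 lay above library 6, and library 1 just above library 8. Within each label the order was still that of *Fabp3*. *Slc27a1*, a fatty acid transport protein, read 84.5, 97.9, 118 and 113 CPM, then 122, 102, 124 and 127 CPM, and 28.7 CPM in library 3. Libraries 7 and 9 exceeded library 4 for this gene, and libraries 1 and 5 did not.

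On the lipid droplet, *Plin5*, a coat protein of oxidative tissues, was at 114, 133, 118 and 126 CPM, then 142, 139, 150.02 and 149 CPM, and 14.5 CPM in library 3, without overlap. *Pnpla2*, the lipase that starts the breakdown of stored triglyceride, was at 86.8, 85.6, 85.7 and 69.2 CPM, then 101, 97.01, 92.1 and 85.3 CPM, and 34.2 CPM in library 3. Its sets overlapped, library 8 lying just below libraries 1, 5 and 7.

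Activation and entry into mitochondria opened with *Acsl1* (ENSMUSG00000018796, chromosome 8, 46471037 to 46536051), the main long-chain acyl-CoA synthetase of the heart, at 951, 1028, 1073 and 1052 CPM, then 1358, 1244, 1383 and 1418 CPM, and 137 CPM in library 3. The sets did not overlap, and the lowest of the second was 1.16 times the highest of the first. *Cpt1b* (ENSMUSG00000078937, chromosome 15, 89416405 to 89425863), the muscle form of the outer carnitine palmitoyltransferase, read 19.00, 17.3, 17.5 and 21.6 CPM, then 20.2, 20.3, 23.9 and 22.6 CPM, and 4.34 CPM in library 3. Library 9 exceeded libraries 2 and 4, so that the sets overlapped, although the order held within each label. In the GENCODE M21 annotation, 81.4% of its exon bases are shared with *Gm44502* on the same strand, and how reads on shared bases were counted is not given in the sources used here, so its level is uncertain. *Cpt1a* (ENSMUSG00000024900, chromosome 19, 3322334 to 3385733), the form known from liver and the fetal heart, read 72.01, 68.7, 90.5 and 88.6 CPM, then 78.9, 65.3, 86.9 and 84.6 CPM, and 54.8 CPM in library 3. It followed the labels and not *Vdac2*, with every library labelled KO above every library labelled WT. *Cpt2*, which re-forms acyl-CoA inside the mitochondrion, was at 159.5, 168, 154 and 154 CPM, then 204, 208, 187 and 190.2 CPM, and 40.9 CPM in library 3, without overlap. *Crat*, which exchanges acetyl groups between CoA and carnitine, was at 389, 428, 378 and 429.8 CPM, then 469, 482, 501 and 491 CPM, and 107 CPM in library 3, also without overlap. Malonyl-CoA, the inhibitor of the outer transferase, is made by *Acacb* and removed by *Mlycd*. *Acacb* read 197, 191, 212 and 163 CPM, then 252, 239.5, 266 and 244 CPM, and 49.5 CPM in library 3, the sets not overlapping. *Mlycd* read 80.1, 81.2, 88.6 and 99.1 CPM, then 109, 96.8, 104 and 117 CPM, and 19.96 CPM in library 3, with library 9 above library 4. The synthesizing and the removing enzyme thus had the same order within each label.

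**Figure D2:**
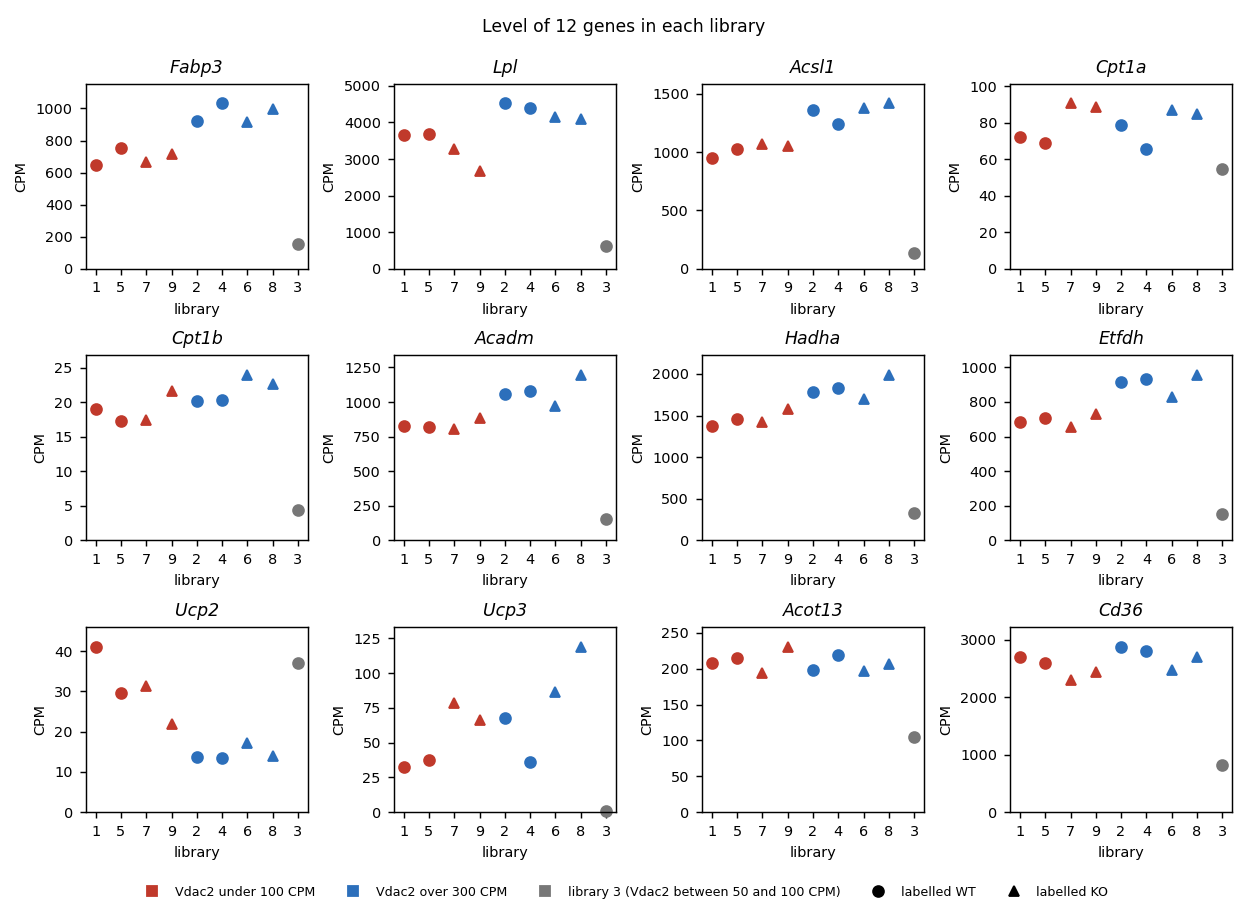
Level in CPM (vertical axes, from 0) of 12 genes in each library (horizontal axes), circles for libraries labelled WT and triangles for those labelled KO, coloured by the level of *Vdac2*. *Fabp3*, *Lpl*, *Acsl1*, *Acadm*, *Hadha* and *Etfdh* lie lower in libraries 1, 5, 7 and 9 than in libraries 2, 4, 6 and 8, *Cpt1a* separates by label, *Ucp2* lies higher in libraries 1, 5, 7 and 9, and library 3 is the lowest point in every panel but that of *Ucp2*.

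Acyl-CoA dehydrogenases take the first step of each round, and differ in the chain length they accept. *Acadvl*, for very long chains, was at 909, 1003, 902 and 1033 CPM, then 1193, 1214, 1182 and 1275 CPM, and 210.3 CPM in library 3. Of its exon bases 42.9% are shared with a gene on the opposite strand, and the strand setting of the counting is not given in the sources used here. *Acadl*, for long chains, was at 626, 623, 552 and 602 CPM, then 746, 766, 704 and 721 CPM, and 203 CPM in library 3. *Acadm* (ENSMUSG00000062908, chromosome 3, 153922357 to 153944632), for medium chains, was at 827, 822, 803 and 886 CPM, then 1059, 1076, 971 and 1194 CPM, and 158 CPM in library 3. These 3 genes had no overlap between the sets. *Acads*, for short chains, read 139.9, 141, 117 and 159.7 CPM, then 164, 178, 152 and 179 CPM, and 54.9 CPM in library 3, and overlapped because library 9 exceeded library 6. *Acad11* read 271, 234, 243 and 276 CPM, then 272, 262, 255 and 269 CPM, and 76.4 CPM in library 3, library 9 being the highest of all. *Acad10* read 5.51, 5.40, 5.93 and 5.42 CPM, then 5.41, 4.37, 5.33 and 5.002 CPM, and 2.29 CPM in library 3, library 7 being the highest of all. *Acad9*, better known for the assembly of respiratory complex I than for oxidation, lay between 41.0 and 48.4 CPM in the 8 libraries, with overlap, and at 30.8 CPM in library 3. The enzymes for very long, long and medium chains were lower without overlap where *Vdac2* was low, and the other 4 dehydrogenases overlapped. For *Acads* the overlap was that of library 9 with library 6 alone, and no difference by chain length is read from these orders.

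In the later steps of the spiral, 5 of 6 genes lay lower without overlap (4.93% of all tested genes did). *Hadha* (ENSMUSG00000025745, chromosome 5, 30118304 to 30155162), the alpha subunit of the trifunctional protein that hydrates and oxidises long chains, was at 1371, 1462, 1421 and 1577 CPM, then 1779.9, 1825, 1694 and 1984 CPM, and 325 CPM in library 3. *Hadhb*, its thiolase subunit, was at 229.8, 232, 227 and 241 CPM, then 287, 283, 247 and 306 CPM, and 51.8 CPM in library 3. Neither overlapped, but for *Hadhb* library 6 was only 1.02 times library 9. Both subunits are read from starts that lie 273 bases apart on opposite strands of chromosome 5 in RefSeq, and the ratio of *Hadha* to *Hadhb* in CPM stayed between 5.97 and 6.87 in all 9 libraries. *Echs1*, the short-chain hydratase, was at 289.7, 316, 306 and 318 CPM, then 342, 344, 335 and 398 CPM, and 85.3 CPM in library 3. *Hadh*, the dehydrogenase of shorter hydroxyacyl chains, was at 341, 394, 365 and 395 CPM, then 499, 497, 478 and 568 CPM, and 71.1 CPM in library 3. *Acaa2*, the thiolase that splits off acetyl-CoA from them, was at 662, 770.3, 717 and 797 CPM, then 919.7, 944, 903 and 978 CPM, and 129 CPM in library 3. These 3 did not overlap either, and the gap for *Hadh* was 1.21 times. *Acaa1a*, the thiolase of peroxisomes, was between 22.8 and 30.9 CPM in the 8 libraries and overlapped.

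Electrons from the dehydrogenases pass through the electron transfer flavoprotein, made of *Etfa* and *Etfb*, to its oxidoreductase *Etfdh* and so to ubiquinone. *Etfdh* was at 684, 707, 654 and 727 CPM, then 914, 933, 826 and 954 CPM, and 151 CPM in library 3, and the sets did not overlap. *Etfa* was at 295, 304, 264 and 260.2 CPM and then at 357, 362, 336 and 347 CPM. *Etfb* was at 90.95, 103, 88.2 and 89.6 CPM and then at 114, 112, 119 and 114 CPM. All 3 genes were thus lower without overlap in libraries 1, 5, 7 and 9, with the reserve that 58.2% of the exon bases of *Etfb* are shared on its strand, mostly with *Gm45233*, which had 0 counts in all 9 libraries.

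Double bonds are moved or reduced by auxiliary enzymes before oxidation can go on. *Eci1*, an enoyl-CoA isomerase of mitochondria, was at 162, 179.6, 164 and 202 CPM, then 233, 230.2, 213 and 248 CPM, and 30.1 CPM in library 3. *Decr1*, the dienoyl-CoA reductase, was at 415, 439, 379.8 and 462 CPM, then 529, 542, 483 and 543 CPM, and 107 CPM in library 3. *Ech1*, the dienoyl-CoA isomerase, was at 1007, 1257, 1015 and 1110.2 CPM and then at 1475, 1664, 1309 and 1504 CPM, and like the other two did not overlap. *Eci2* overlapped, its 8 values lying between 130.04 and 172 CPM.

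Thioesterases, which release the fatty acid from CoA, and the uncoupling proteins did not share that order. *Acot2*, a mitochondrial thioesterase, read 66.6, 73.7, 66.3 and 54.5 CPM, then 78.7, 62.8, 64.8 and 75.5 CPM, and 6.31 CPM in library 3. It is nearly identical to *Acot1*, so that its reads may be split between them and its level is uncertain. *Acot13* lay between 194 and 230.5 CPM in the 8 libraries with no order by *Vdac2*, and at 105 CPM in library 3. *Ucp2* (ENSMUSG00000033685, chromosome 7, 100493337 to 100502020), a mitochondrial carrier that is widely expressed, also in immune cells, was at 41.1, 29.5, 31.4 and 21.8 CPM, then 13.8, 13.4, 17.1 and 14.03 CPM, and 37.1 CPM in library 3. It was the only one of the 37 genes to lie higher where *Vdac2* was low, the lowest of the first 4 values being 1.28 times the highest of the next 4. *Ucp3* (ENSMUSG00000032942, chromosome 7, 100472990 to 100486432), the muscle form, was at 32.6, 37.7, 78.6 and 65.98 CPM, then 67.6, 36.1, 86.6 and 119 CPM, and 1.13 CPM in library 3. Its start and that of *Ucp2* lie 20367 bases apart. *Ucp3* had the widest range of the 37 genes over the 8 libraries, and its 42 counts in library 3 were the lowest count of any of the 37 genes.

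The orders by *Vdac2* came with other differences in the same libraries. The summed level of the 37 genes was 17385 to 18890.2 CPM in libraries 1, 5, 7 and 9 and 21283 to 22956 CPM in libraries 2, 4, 6 and 8, without overlap, and 4276 CPM in library 3. That of the 8 ventricular markers was 48909 to 58616 CPM and 58386 to 68139.9 CPM, which overlapped, with only *Myl3* lower without overlap among the 8 genes. Within each label the marker sum had the same order as that of the 37 genes. It was 48909 and 51842 CPM in libraries 1 and 5 against 58386 and 58603 CPM in libraries 2 and 4. In libraries 7 and 9 it was 56043.5 and 58616 CPM, against 68139.9 and 65573 CPM in libraries 6 and 8. Of the 8 markers, 8 lay lower in this way within the WT label and 3 within the KO label (23.3% and 17.1% of all tested genes). As a percent of the summed ventricular markers, the 37 genes were at 36.9% and 36.4% in libraries 1 and 5 against 38.8% in both of libraries 2 and 4, and at 31.0% and 30.5% in libraries 7 and 9 against 31.2% and 35.0% in libraries 6 and 8. In library 3 the figure was 31.9%, within the range of the other libraries although the summed level itself was far below theirs. The 4 macrophage markers summed to 179 to 246 CPM in libraries 1, 5, 7 and 9, to 120 to 173 CPM in libraries 2, 4, 6 and 8 and to 456 CPM in library 3, with *Adgre1* and *Cd68* higher without overlap. The 6 fibroblast markers summed to 1147 to 1330 CPM, 884 to 1148 CPM and 2858 CPM in turn, of which *Col1a2* and *Tcf21* did not overlap. *Col1a1* (691 CPM), *Col1a2* (1412 CPM), *Pdgfra* and *Tcf21* were highest in library 3. *Lum* lay within the range of the other libraries there, and *Dcn*, at 454 CPM, was the lowest of the 9. Of the 6 endothelial markers *Pecam1* was lower without overlap. The 6 adipocyte markers, of which *Lep* lay under the level of 3 counts in every library, summed to at most 1.503 CPM in any library. *Nppa*, which encodes atrial natriuretic peptide, was between 157 and 1523 CPM in libraries 1, 5, 7 and 9 and between 72.8 and 104 CPM in libraries 2, 4, 6 and 8, and library 3 was the highest of the 9 at 3347 CPM. Of all tested genes 4.93% lay lower and 7.16% higher without overlap. The part of these cell types in the levels of the 37 genes was not tested.

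Library 3 was the lowest of the 9 for 36 of the 37 genes, where it was the lowest for 37.4% of all tested genes. Its level was 3.48% (*Ucp3*) to 277% (*Ucp2*) of the lowest other library, with a median of 26.6%. The relative place of the genes was read per kilobase of exon, as the median of the other 8 libraries. *Fabp3* came first at 1015 CPM per kb (range 789.7 to 1253), followed by *Cd36* at 738 (643 to 802), whose ranges overlap at their ends. *Ech1* at 562 and *Acaa2* at 561 came next and did not differ beyond their spread, and *Acadvl* followed at 412 CPM per kb. At the foot of the order were *Cpt1b* at 6.01, *Acad9* at 5.34, *Ucp2* at 2.79 and *Acad10* at 0.891 CPM per kb. *Cpt1a*, at 10.7 CPM per kb, lay above *Cpt1b*, a place that rests on the uncertain count of the latter. Exon lengths are those of GENCODE M21, all exons of a gene merged, so a gene with long, seldom used exons is placed too low.

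**Figure D3:**
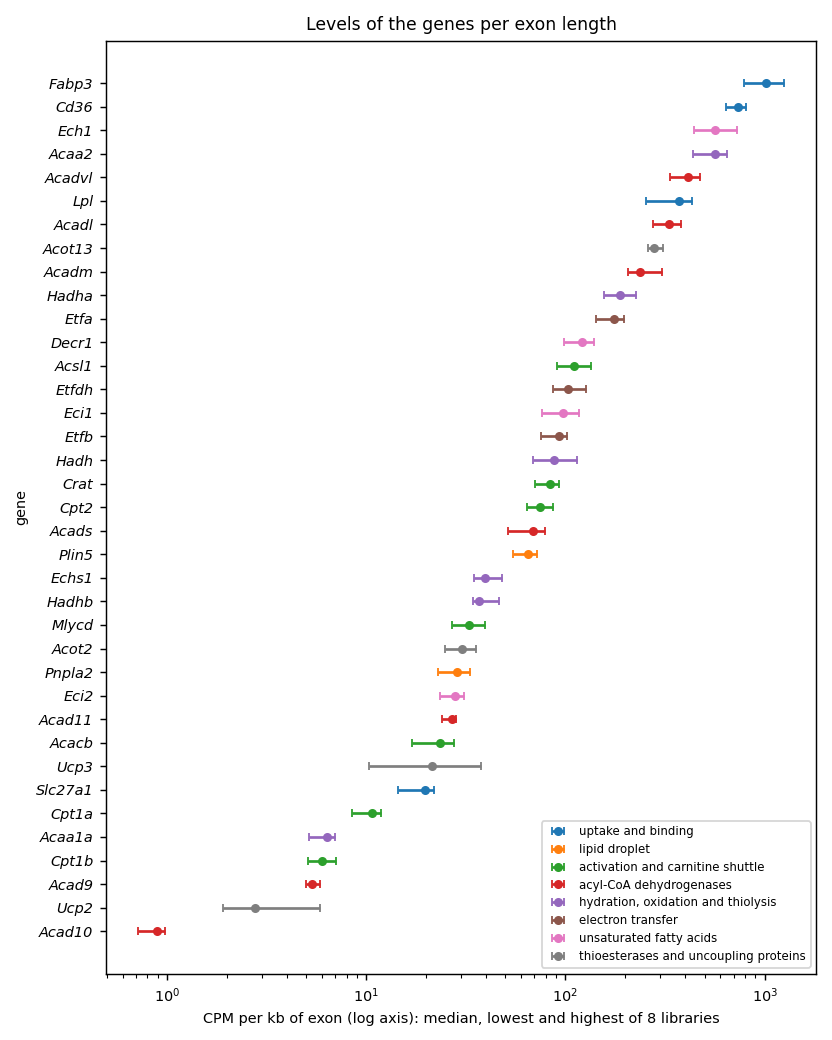
Level of each of the 37 genes in CPM per kb of exon (horizontal log axis), points for the median and bars for the lowest and highest of 8 libraries (library 3 left out), coloured by role. The genes span from 0.891 (*Acad10*) to 1015 (*Fabp3*) CPM per kb.

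The comparison the labels give is KO against WT, and it is independent of the rule that chose the libraries. Libraries with little and with much *Vdac2* stand under both labels, so the result of this comparison says nothing on the loss of *Vdac2*. 0 of the 37 genes passed an adjusted p of 0.05 in edgeR's quasi-likelihood fit over all tested genes, where 9 of 16322 (0.0551%) did. DESeq2 and limma with library quality weights also gave 0, and 0.429% and 0.484% of all tested genes. Among the 9 genes from edgeR were *Xist* and *Ddx3y* of the sex chromosomes (edgeR adjusted p = 1.08e-07 for each), and label and sex cannot be told apart. At an unadjusted p of 0.05 edgeR gave 1 of the 37 (6.11% of all tested genes), DESeq2 gave 1 (8.15% of all) and limma with weights gave 3 (13.6% of all). The adjusted values of the 37 genes ran from 0.68 to 0.96. The log2 fold changes ran from -0.36 (*Ucp2*) to 1.32 (*Ucp3*), with a median of 0.24 over the 37 genes and -0.02 over all tested genes, and 36 of 37 were above 0. That lean rests on library 3: without it the median was 0.02 and 20 of 37 were above 0.

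The gene with the lowest unadjusted p was *Cpt1a*, at 67.9 ± 8.89 (SD, n = 5) CPM for the WT label and 87.7 ± 2.50 (SD, n = 4) CPM for the KO label, with a log2 fold change of 0.37 (SE 0.11, edgeR unadjusted p = 0.0064, adjusted p = 0.68). The 5 values labelled WT, 54.8 to 78.9 CPM, lay below the 4 labelled KO, 84.6 to 90.5 CPM, but the difference did not pass the adjustment over all genes. Without library 3 its log2 fold change was 0.29 (edgeR adjusted p = 0.13). *Ucp3* had the largest estimate, at 35.02 ± 23.6 (SD, n = 5) CPM for the WT label and 87.5 ± 22.6 (SD, n = 4) CPM for the KO label, a log2 fold change of 1.32 (SE 0.74, edgeR adjusted p = 0.68). Its labels overlapped, library 2 at 67.6 CPM lying above library 9 at 66.0 CPM, and without library 3 the estimate was 1.001 (edgeR adjusted p = 0.22). *Ucp2*, the only gene with a lower estimate, was at 27.00 ± 12.9 (SD, n = 5) CPM for the WT label and 21.1 ± 7.59 (SD, n = 4) CPM for the KO label. Its log2 fold change of -0.36 had an SE of 0.39 (edgeR adjusted p = 0.75). It was -0.22 without library 3, and ran from -0.61 to -0.16 with 1 library left out. For *Cd36*, *Fabp3* and *Lpl* the SD within either label exceeded the difference between the means. *Cd36* was at 2362 ± 871 (SD, n = 5) CPM for the WT label and 2481 ± 162 (SD, n = 4) CPM for the KO label, with a log2 fold change of 0.07 (SE 0.33). *Fabp3* was at 703 ± 339.6 (SD, n = 5) CPM for the WT label and 821 ± 158 (SD, n = 4) CPM for the KO label, with 0.22 (SE 0.44) on the log2 scale. *Lpl*, at 3374 ± 1591 (SD, n = 5) CPM for the WT label and 3548 ± 705 (SD, n = 4) CPM for the KO label, had 0.07 (SE 0.48). The edgeR adjusted p of these 3 genes was 0.94, 0.86 and 0.96 in turn. Without library 3 the estimates of these 3 genes turned to -0.15, -0.041 and -0.20 in turn. *Acsl1* had a log2 fold change of 0.38 (SE 0.51), *Cpt1b* of 0.40 (SE 0.37), *Acadm* of 0.29 (SE 0.45) and *Hadha* of 0.30 (SE 0.42), with adjusted p from 0.72 to 0.82 in edgeR. Without library 3 these 4 estimates fell to 0.097, 0.15, 0.018 and 0.045 in turn.

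**Figure D4:**
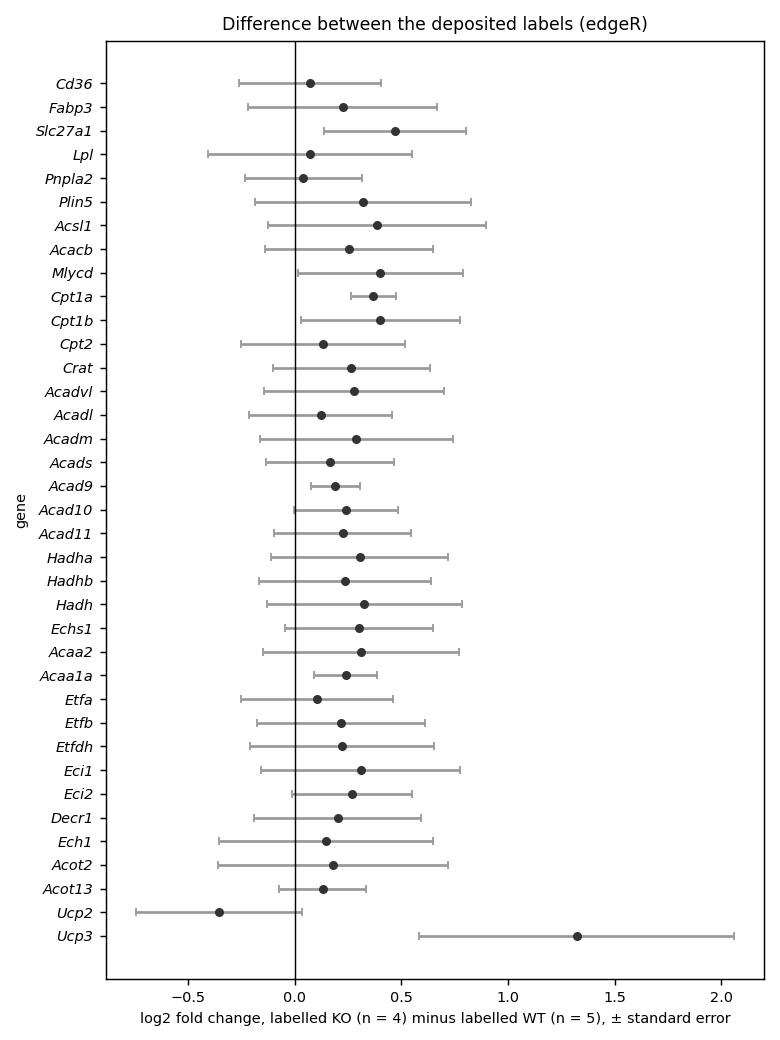
Log2 fold change (horizontal axis) of each of the 37 genes between the 4 libraries labelled KO and the 5 labelled WT from edgeR, with bars of 1 standard error. 36 of 37 points lie right of 0, none passed an adjusted p of 0.05, and *Cpt1a* has the smallest standard error, 0.11, and *Ucp3* the largest, 0.74.

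A list of 62 partner genes covered fatty acid handling and also held enzymes of amino acid breakdown, such as *Ivd* and *Gcdh*. Of these, 60 passed the filter and 0 passed an adjusted p of 0.05 between the labels in edgeR, as in DESeq2 and limma with weights. At an unadjusted p of 0.05 these gave 4, 5 and 5 of the 60 genes, where they gave 6.11%, 8.15% and 13.6% of all tested genes, so that nothing particular to the list is read from them. The median log2 fold change was 0.15, and 0.024 without library 3, with 33 of 60 above 0 then. The 4 from edgeR were *Fabp5*, *Hacl1*, *Acaca* and *Pdk4*. *Fabp5*, a binding protein of skin, fat and macrophages, had a log2 fold change of -0.33 (SE 0.12). *Hacl1*, of peroxisomal alpha-oxidation, had 0.36 (SE 0.14). *Acaca*, the carboxylase of fatty acid synthesis, had -0.51 (SE 0.21). *Pdk4*, the kinase that turns off pyruvate dehydrogenase and a known PPAR target, read 417, 424, 759 and 649 CPM, then 507, 421, 617 and 992 CPM, and 81.6 CPM in library 3. Its labelled KO values all exceeded those labelled WT, at 370.1 ± 166 (SD, n = 5) CPM for the WT label and 754 ± 169.8 (SD, n = 4) CPM for the KO label, with a log2 fold change of 1.03 (SE 0.43). Each of these 4 genes had an adjusted p of 0.68 in edgeR. Without library 3 the estimates were -0.27 for *Fabp5*, 0.30 for *Hacl1*, -0.32 for *Acaca* and 0.76 for *Pdk4*, with edgeR adjusted p from 0.057 (*Pdk4*) to 0.39. By *Vdac2*, 10 of the 60 (16.7%) lay lower without overlap in libraries 1, 5, 7 and 9, against 4.93% of all tested genes, among them *Slc25a20*, the carnitine-acylcarnitine translocase, at 163, 176, 169 and 180.3 CPM, then 208, 188, 184 and 193 CPM, and 47.1 CPM in library 3. The 10 genes also held *Ivd* and *Gcdh*. *Plin2*, a droplet coat protein, was the 1 gene that lay higher, as 7.16% of all tested genes did. *Angptl4*, the secreted inhibitor of lipoprotein lipase, read 16.3, 21.1, 19.2 and 16.1 CPM, then 21.6, 15.5, 17.1 and 28.2 CPM, and 33.7 CPM in library 3, with overlap and with library 3 the highest.

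Of 25 regulators of these genes, 24 passed the filter, 0 passed an adjusted p of 0.05 between labels in edgeR, DESeq2 or limma with weights, and 1, 1 and 5 of 24 had an unadjusted p under 0.05 (6.11%, 8.15% and 13.6% of all tested genes). The gene from edgeR was *Med1*, a Mediator subunit, with a log2 fold change of -0.20 (SE 0.087, edgeR adjusted p = 0.68), and -0.21 without library 3. By *Vdac2*, 8 of 24 (33.3%) lay lower without overlap and 0 higher, against 4.93% and 7.16% of all tested genes. The rule that chose the libraries used this contrast, so nothing is read from these counts against the background. *Ppara*, the receptor that fatty acids activate in heart and liver, was at 41.3, 46.1, 47.4 and 41.02 CPM, then 55.7, 55.7, 65.6 and 52.6 CPM, and 9.63 CPM in library 3, and belonged to the 8. *Ppargc1a*, which encodes PGC-1alpha, was at 134, 129.7, 137 and 125 CPM, then 151, 151, 172 and 137 CPM, and 28.7 CPM in library 3, and did so as well. Its gap was narrow, library 7 at 136.6 CPM lying just below library 8 at 137.4 CPM. *Ppargc1b*, its relative, read 12.2, 10.3, 16.5 and 9.56 CPM, then 13.8, 12.02, 20.05 and 12.2 CPM, and 4.40 CPM in library 3, and *Esrra*, an oestrogen-related receptor, read 82.1, 85.8, 80.1 and 102 CPM, then 88.8, 91.9, 97.5 and 94.97 CPM, and 45.5 CPM in library 3. Both overlapped. The others of the 8 were *Rxrg*, *Esrrb*, *Lpin1*, *Klf15*, *Nrip1* and *Nrf1*.

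**Figure D5:**
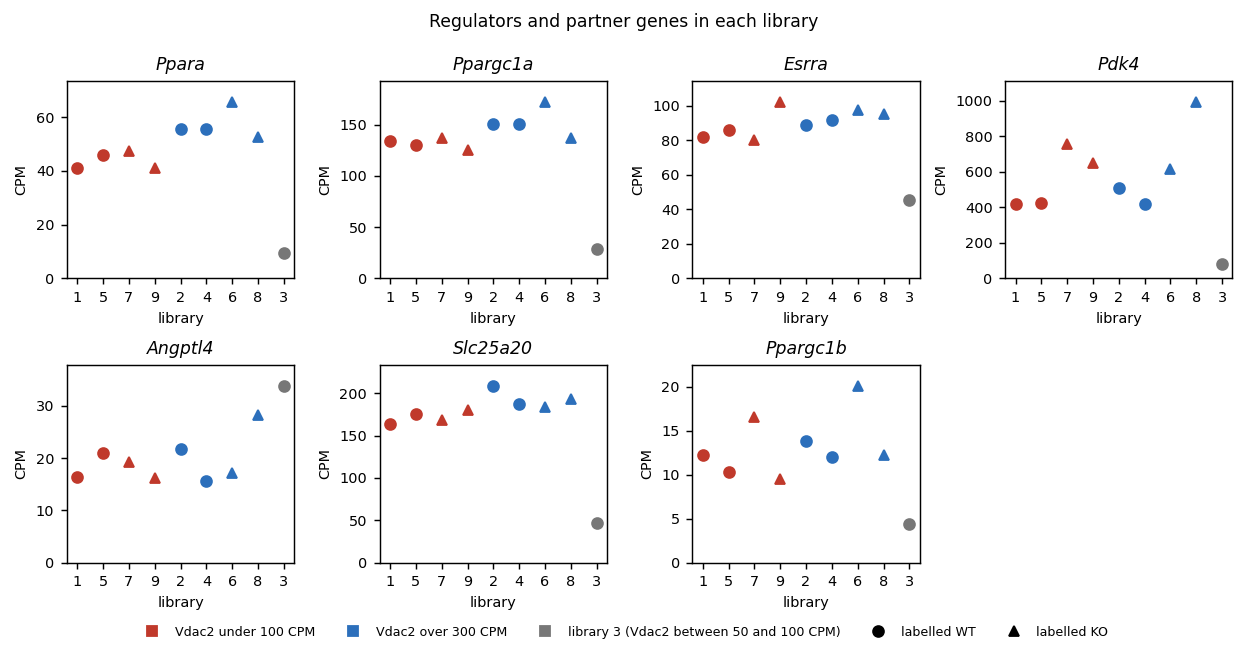
Level in CPM (vertical axes, from 0) of 4 regulators and 3 partner genes in each library (horizontal axes), with circles for libraries labelled WT, triangles for those labelled KO and colours by the level of *Vdac2*. *Ppara* and *Slc25a20* lie lower in libraries 1, 5, 7 and 9 than in libraries 2, 4, 6 and 8, *Pdk4* is higher in the libraries labelled KO, and library 3 is the lowest in all panels but that of *Angptl4*.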

How the data were processed

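Left ventricular RNA was extracted, depleted of ribosomal RNA (TruSeq Stranded with Ribo-Zero Gold) and sequenced with 50-base single-end reads by the authors, who deposited raw counts per Ensembl gene for 9 libraries, without normalization. Their processing notes name STAR 2.7.2c, featureCounts 1.6.3 and DESeq2, and the genome was GRCm38. The annotation release and strand setting are not given in the sources used here. Symbols were found for 52403 of 52636 genes, and coordinates are from GENCODE M21.

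The 9 libraries were compared by label in edgeR 4.0.16 (R 4.3.3): filterByExpr, TMM scaling, robust dispersions and the quasi-likelihood F-test, with Benjamini-Hochberg adjustment over 16322 genes. SE is the absolute log2 fold change over the square root of F. The script was tested on simulated data. Alternatives were DESeq2 1.42.0, limma 3.58.1 voom with library quality weights, RLE and upper-quartile scaling, raw totals, other filters, no mitochondrially encoded genes, library 3 joined to libraries 1, 5, 7 and 9, and each library left out. The members, lists and libraries set side by side were chosen with earlier results of these data known. Per-library values were printed for 30 of the 37 genes and 7 partners and regulators picked by name, for *Etfa*, *Etfb* and *Ech1*, and in the closing section for *Crot*, *Abcd3*, *Ivd* and *Gcdh*, and fold changes for the 3 genes of the other 2 lists with the lowest unadjusted p. *Etfa*, *Etfb*, *Ech1*, *Plin2*, *Med1*, the 4 of the closing section and the 10 of the 37 genes with a printed log2 fold change were chosen after their values were seen. Promoters are from RefSeq GRCm38.p6. Some genes of the other lists are not reported here. Proteins and other assays were not analysed here.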

Additional observations from a re-analysis of the deposited data

Results flagged for a closer look

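Library 3, labelled WT, stood apart from the other 4 libraries of its label for 34 of the 37 genes, always as the lowest. For each, the gap between library 3 and the next library, divided by the range of the 5 libraries in log2 CPM, exceeded Dixon's critical value of 0.71. Chance puts about 1 in 20 groups past this value, 74 groups were examined (37 genes in each label), and the genes are not independent of each other. Among the genes of uptake and binding, the ratio was 0.9193 for *Cd36*, 0.7556 for *Fabp3*, 0.7447 for *Slc27a1* and 0.8928 for *Lpl*. On the lipid droplet, the ratio was 0.851 for *Pnpla2* and 0.9051 for *Plin5*. In activation and the carnitine shuttle, the ratio was 0.8449 for *Acsl1*, 0.8272 for *Acacb*, 0.8192 for *Mlycd*, 0.898 for *Cpt1b*, 0.836 for *Cpt2* and 0.8569 for *Crat*. Among the acyl-CoA dehydrogenases, the ratio was 0.8346 for *Acadvl*, 0.844 for *Acadl*, 0.8598 for *Acadm*, 0.7952 for *Acads*, 0.7728 for *Acad9*, 0.7363 for *Acad10* and 0.8833 for *Acad11*. In the later steps of the spiral, the ratio was 0.8343 for *Hadha*, 0.8696 for *Hadhb*, 0.8049 for *Hadh*, 0.8775 for *Echs1* and 0.8216 for *Acaa2*. In electron transfer, the ratio was 0.8564 for *Etfa*, 0.8634 for *Etfb* and 0.8295 for *Etfdh*. Among the enzymes for unsaturated fatty acids, the ratio was 0.8234 for *Eci1*, 0.8155 for *Eci2*, 0.8358 for *Decr1* and 0.7747 for *Ech1*. Of the thioesterases and uncoupling proteins, the ratio was 0.9109 for *Acot2*, 0.8596 for *Acot13* and 0.8212 for *Ucp3*. *Cpt1a*, *Acaa1a* and *Ucp2* did not pass. The same library held 9.07% of its counts in mitochondrially encoded genes and the highest summed fibroblast and macrophage markers, although the fibroblast marker *Dcn* was lowest there. The part of these differences in the gaps was not tested.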

How the results depend on the processing

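0 of the 37 genes, and 0 of the tested partner genes, passed an adjusted p of 0.05 between the labels under every alternative run. Over all genes the count was 9 in edgeR, 70 in DESeq2, 79 with limma's library quality weights and 0 with at least 10 counts in every library, where 875 genes had an unadjusted p under 0.05 in edgeR. With 1 library left out it ran from 5 (without library 1, 2 or 4) to 62 (without library 3). The cause was not tested. The log2 fold change turned below 0 with quality weights for *Cd36* (-0.12) and *Lpl* (-0.11). With 1 library left out it ran from -0.15 to 0.15 for *Cd36*, from -0.041 to 0.40 for *Fabp3* and from -0.20 to 0.20 for *Lpl*. The genes not overlapping by *Vdac2* were 22 (21 of them lower in libraries 1, 5, 7 and 9), 19 with raw totals (17 lower) and 23 with upper-quartile scaling, where 12.1%, 13.9% and 12.2% of all tested genes did not overlap in either direction. With 1 of the 8 libraries left out the genes were 22 to 27 and the share of all tested genes 14.9% to 17.8%, which is higher because fewer values have to be separated. No paired analysis was possible because the labels give no litter or other pairing of the libraries. The lowest count of the 37 genes in any library was 42 (*Ucp3*), and a limit set by depth was not tested. The number of libraries, the unknown sample with poor RNA and the coincidence of label, lane and sex limit what the labels show, and *Vdac2* does not separate the labels.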

Other observations

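Some of the partner genes act in peroxisomes. *Crot*, which makes carnitine esters in the peroxisome, was at 58.9, 57.1, 60.3 and 77.6 CPM in libraries 1, 5, 7 and 9 and at 52.8, 54.2, 53.9 and 60.8 CPM in libraries 2, 4, 6 and 8, library 9 being the highest of the 8. Its values overlapped. Of the peroxisomal transporters, *Abcd3* was at 146, 166, 156 and 153 CPM and then at 205, 177, 189 and 189 CPM, without overlap, and *Abcd2* overlapped. Dehydrogenases of amino acid breakdown that share the electron transfer flavoprotein followed. *Ivd*, for leucine, was at 279, 265, 301 and 334 CPM and then at 371, 341, 354 and 411 CPM, and *Gcdh*, for lysine, at 64.4, 67.5, 68.8 and 77.1 CPM and then at 79.97, 82.6, 88.5 and 101 CPM, both without overlap, while *Acadsb* and *Acad8* overlapped. These genes were picked after their values were seen.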
